A study of Mus musculus with 4 samples.

Results

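Tenascin C and 9 further genes of matricellular and related matrix proteins (Tnc, Ccn1, Ccn2, Ccn4, Thbs1, Thbs2, Sparc, Spp1, Fn1 and Postn) were followed across 4 clonal lines of mouse neural stem cells. All probe sets whose annotated symbol was a member were taken, which gave 9 of the 12403 gene probe sets on the array, for 8 of the 10 genes. A further probe set is annotated to both Pald1 and Thbs1 and was assigned to neither. Its signals were 55.2 for clone 42 and 42.7 for clone 48, against 26.2 for puroB and 47.9 for puroD. Only that of clone 48 lay above the highest control for transcripts not spiked in on its array (39.1), so nothing is read from them. No probe set was assigned to Spp1 here. The members were selected on earlier results of these arrays, among them the Tnc and Ccn4 signals of Nurr1-labelled against control clones, so the difference between Nurr1-labelled and control clones is given for them as a description, and no p-value is given for a member.

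The cells are derivatives of c17.2, an immortalised line from neonatal mouse cerebellum, kept in proliferating culture. Clone 42 and clone 48 carry a stable transfection with Nurr1, an orphan nuclear receptor whose gene is Nr4a2, and puroB and puroD carry the empty vector for puromycin resistance. By proliferation rate, puroB served as the match of clone 42 and puroD as that of clone 48 in the sample descriptions, which were followed; the design text writes clone 42 in both pairs, with c48 in brackets in the pair of puroD. Each clone was measured on 1 Affymetrix array. Each group therefore holds 2 clones, and each line is 1 clone. A difference between groups cannot be told apart from a difference between single clones, whether or not the clones of a group agree. The number of arrays limits the precision.

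Matricellular proteins are secreted into the extracellular matrix, where they bind structural proteins, growth factors and cell-surface receptors such as integrins and syndecans, and modulate adhesion and migration more than they bear load. Tenascin C, osteonectin (encoded by Sparc) and the thrombospondins are the classical members; the CCN proteins are a modular family, periostin (Postn) binds tenascin C, and fibronectin (Fn1) is a structural adhesion protein to which several of them attach. In the developing nervous system tenascin C is made by radial glia and stem cell niches, and in other tissues by activated mesenchymal cells.

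The start regions of Tnc and Postn, whose signals were higher in both Nurr1-labelled clones than in either control, and of Ccn1, whose signals were not, are shown for comparison. They run from 250 bases before to 50 bases after an annotated start, on the coding strand, from RefSeq for GRCm38.p6; 6 of the 10 members had 9 such windows, and for Tnc and Postn the more downstream start is printed. Capitals mark 3 motifs. A TATA box was searched as TATAAA and as TATATAA, which overlap in Postn. The octamer of POU factors was searched as ATGCAAAT, and the element of TEAD factors as GGAATG, which reads CATTCC on the reverse strand.
Tnc, chr4:64046887-64047186, minus strand: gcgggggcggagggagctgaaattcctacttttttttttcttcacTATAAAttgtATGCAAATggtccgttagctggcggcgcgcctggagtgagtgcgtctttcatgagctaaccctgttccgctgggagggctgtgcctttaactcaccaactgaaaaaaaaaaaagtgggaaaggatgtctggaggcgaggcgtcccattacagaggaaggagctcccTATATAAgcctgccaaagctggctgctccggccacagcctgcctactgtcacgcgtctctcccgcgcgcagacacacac
Postn, chr3:54360857-54361156, plus strand: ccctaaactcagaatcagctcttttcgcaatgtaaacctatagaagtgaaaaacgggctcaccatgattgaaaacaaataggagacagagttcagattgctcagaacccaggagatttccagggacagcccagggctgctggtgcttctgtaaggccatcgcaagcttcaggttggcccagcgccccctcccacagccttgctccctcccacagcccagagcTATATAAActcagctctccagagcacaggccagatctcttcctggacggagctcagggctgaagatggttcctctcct
Ccn1, chr3:145649936-145650235, minus strand: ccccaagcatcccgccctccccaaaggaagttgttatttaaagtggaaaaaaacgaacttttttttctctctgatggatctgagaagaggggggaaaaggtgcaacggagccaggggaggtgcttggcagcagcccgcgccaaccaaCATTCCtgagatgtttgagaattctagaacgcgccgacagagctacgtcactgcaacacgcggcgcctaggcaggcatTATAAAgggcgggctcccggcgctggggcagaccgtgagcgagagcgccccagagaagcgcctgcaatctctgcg
A TATA box match began 29 bases before the start in Tnc, 28 in Postn and 25 in Ccn1. The printed Tnc window holds a further TATAAA, which began 205 bases before the start. TATAAA occurred in 6 of the 9 member windows, against 13.6% of all windows, and TATATAA in 2, against 3.24%. The overlapping Tnc windows hold the same TATAAA. The octamer began 195 bases before the Tnc start and occurred in 3 of the 9 member windows, against 1.74% of all 32851 windows, but 2 of the 3 are overlapping Tnc windows that hold the same site. The TEAD match lay 103 bases before the Ccn1 start (14.7% of all windows hold 1). Matches on both strands were counted. AAAGGTCA, the element that Nurr1 binds as a monomer (1.51% of all windows), TGANTCA, the AP-1 element (7.81%), and the CArG box of serum response factor (1.63%) had matches in 0 of the 9 windows. These are letter matches in short windows, which say nothing of binding.

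Signals of the arrays are in arbitrary units on a common scale. Control probe sets for transcripts that had not been spiked in gave a background whose highest value lay between 39.1 and 62.6 on the 4 arrays. Signals under 40.3, the floor, were set to it before log2 was taken, and a probe set was tested where at least 2 arrays exceeded 145.05. That left 6419 probe sets and 5 of the 9 member probe sets, 1 each of Tnc, Ccn4, Postn, Sparc and Fn1. The transfected gene, Nr4a2, had 320 for clone 42 and 206 for clone 48, against 485 for puroB and 254 for puroD (92248_at), and 188 and 113 against 372 and 213 at its other probe set (92249_g_at). Its signal at these probe sets was therefore not higher in the clones labelled as transfected, which are called Nurr1-labelled here. Whether the probe sets cover the transfected sequence is not known. The ratio of 3' to 5' actin signal was 1.68 for clone 42 and 2.41 for clone 48, against 1.51 for puroB and 2.0 for puroD. That of Gapdh was 0.935 and 1.24 against 0.859 and 0.973. Both ratios were higher in the Nurr1-labelled clone of each pair, but the groups overlapped, since clone 42 lay below puroD. The part of RNA integrity in the results was not tested. Of 14 listed neural stem and progenitor markers, 9 were on the array and 4 were tested. Of these 4, 0 were higher and 3 lower in both pairs, beside 21.7% and 29.7% of all tested probe sets. Their median log2 difference was -0.43, and 0 passed. Fabp7, a fatty acid binding protein of radial glia, gave 564 for clone 42 and 157 for clone 48, against 1292 for puroB and 1538 for puroD (-2.24; limma adjusted p = 0.0503). Hes1 (-0.47) and the receptor Notch1 (-0.38) also lay below both controls in both Nurr1-labelled clones, as 17.9% of all tested probe sets did. Nes, the intermediate filament nestin, gave 3171 and 3716 against 3323 and 3027. Hes5, a Notch target of neural stem cells, was not above background on any array.

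Tnc was much brighter in the Nurr1-labelled clones. The signal of 101993_at was 1473 for clone 42 and 409 for clone 48, against 89.6 for puroB and 121 for puroD. The groups did not overlap, both controls lay above the highest unspiked control of their own arrays, and clone 42 stood 3.60-fold above clone 48. Within the pairs the signal was 16.4-fold and 3.38-fold higher, or 4.04 and 1.76 on the log2 scale, while the control clones differed by only 1.35-fold, with puroD the brighter. The mean log2 difference was 2.90 ± 0.43 (SE of the limma fit, n = 2 clones per group), the highest of the 6419 tested probe sets. The other Tnc probe set, 162362_f_at, which was too dim to be tested, gave 108 for clone 42 and 43.7 for clone 48, against 9.99 for puroB and 15.4 for puroD. Clone 42 was the brightest there too. No fold is given for it, because neither control signal was above the highest unspiked control.

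**Figure D1:**
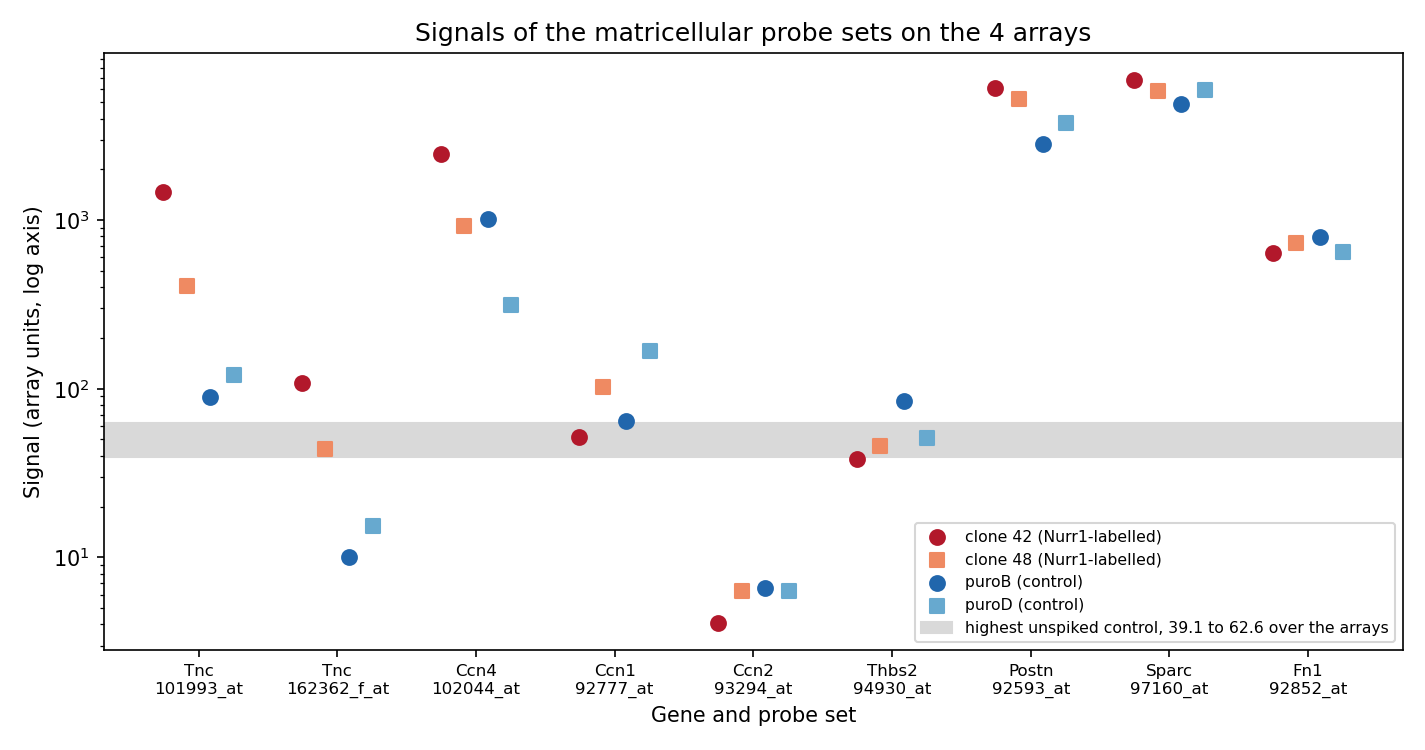
Signal on each of the 4 arrays (log axis, array units) for the 9 member probe sets; circles and squares mark the 2 matched pairs, and the grey band spans the highest unspiked control of the arrays, 39.1 to 62.6. Tnc separates the groups at its bright probe set, Ccn4 spreads over all 4 clones, and Ccn2 lies under the band everywhere.

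The CCN genes encode secreted proteins built of the same modules, and they differed from each other. Ccn4, also known as Wisp1 and a target of Wnt signalling, gave 2450 for clone 42 and 922 for clone 48, against 1017 for puroB and 313 for puroD (102044_at). It was higher in the Nurr1-labelled clone of each pair, by 2.41-fold and 2.95-fold, but clone 48 lay below puroB, so the groups overlapped. The spread between clones of the same label was as wide as the difference within the pairs: clone 42 was 2.66-fold above clone 48, and puroB 3.25-fold above puroD. Differences of at least 2-fold were found for 10.7% of tested probe sets between the Nurr1-labelled clones and for 6.06% between the controls. The mean log2 difference was 1.41 ± 0.30 with the pair as a block and 1.41 ± 0.59 without it (SE, n = 2 per group). It was 0.71 without clone 42, 0.56 without puroD, 2.12 without clone 48 and 2.27 without puroB in fits without the pair.

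Ccn1 (Cyr61), an immediate early gene whose product binds integrins, gave 51.7 for clone 42 and 102 for clone 48, against 64.7 for puroB and 168 for puroD (92777_at). Each Nurr1-labelled clone was the dimmer of its pair, the clone 42 signal was not above background, and the groups overlapped. The control clones differed by 2.60-fold, with puroD the brighter, which exceeds the 1.65-fold by which puroD stood above its match clone 48. Ccn2 (Ctgf), a target of TGF-beta and of YAP with its TEAD partners, gave 4.10 for clone 42 and 6.29 for clone 48, against 6.59 for puroB and 6.29 for puroD (93294_at). All 4 values lay far under the highest unspiked control of their arrays, so Ccn2 was not measured above background by this probe set in any clone.

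Postn encodes periostin, which links tenascin C to other matrix proteins and binds integrins. Its signal was 6104 for clone 42 and 5245 for clone 48, against 2822 for puroB and 3756 for puroD (92593_at). As for Tnc, both Nurr1-labelled clones exceeded both controls. The excess was smaller, at 2.16-fold and 1.40-fold, with a mean log2 difference of 0.80 ± 0.32 (SE, n = 2 per group). It was larger than the log2 gap of 0.22 between the Nurr1-labelled clones and of -0.41 in puroB over puroD.

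Sparc encodes osteonectin, a calcium- and collagen-binding glycoprotein. It gave 6759 for clone 42 and 5831 for clone 48, against 4910 for puroB and 5903 for puroD (97160_at). The groups overlapped, since puroD lay above clone 48, and the log2 differences were 0.46 and -0.02, with a mean of 0.22 ± 0.31 (SE, n = 2 per group). The sign in the pair of clone 48 turned with the scaling, to 0.20 with arrays scaled to their medians and 0.05 with quantile normalization. Fn1 gave 636 for clone 42 and 733 for clone 48, against 798 for puroB and 650 for puroD (92852_at). Its signals stayed within a narrow range whose order did not follow the label: the log2 differences were -0.33 and 0.17, and the mean of -0.08 ± 0.30 became 0.09 with the arrays scaled to their medians. Thbs2, the thrombospondin that curbs angiogenesis, gave 38.4 for clone 42 and 45.5 for clone 48, against 84.6 for puroB and 50.7 for puroD (94930_at). It was above the background controls of its own array in clone 48 and puroB and not in clone 42 and puroD, so no fold is given.

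**Figure D2:**
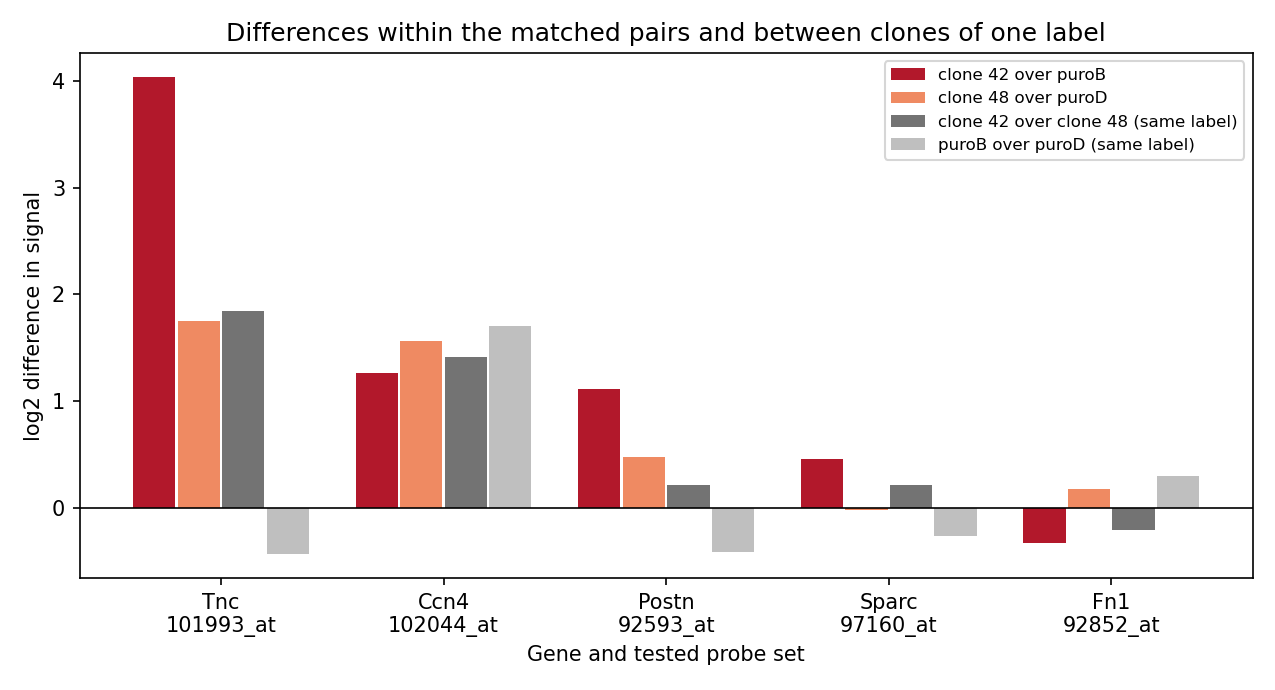
Bars give the log2 difference in signal for the 5 tested member probe sets within each matched pair (red, clone 42 over puroB; orange, clone 48 over puroD) and between clones of the same label (greys). For Tnc and Postn the larger pair difference exceeds both grey bars, for Ccn4 the control clones differ by more (1.70) than either pair, and for Sparc and Fn1 the pairs have opposite signs, which for Sparc turned to the same sign under the other scalings.

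Set against all tested probe sets, the members ranged from the top to the middle. Ranked by mean log2 difference from the highest, Tnc stood at 1, Ccn4 at 17, Postn at 108, Sparc at 1366 and Fn1 at 3493 of 6419. In limma, 1 of the 5 tested member probe sets, that of Tnc, passed a Benjamini-Hochberg adjusted p of 0.05 as higher and 0 as lower, where 0.0623% of all tested probe sets passed as higher and 0.0467% as lower. The members were chosen with this contrast known, and Tnc exceeded the signal needed for testing only through clone 42 and clone 48, so nothing is read from that count. The Tnc log2 difference was 1.97 without clone 42, 2.68 without puroB, 3.82 without clone 48 and 3.11 without puroD. Of the 5, Tnc, Ccn4 and Postn (3) were higher in both pairs and 0 lower, beside 21.7% and 29.7% of all tested probe sets. Both Nurr1-labelled signals exceeded both controls for Tnc and Postn, 2 of the 5, as for 12.8% of all tested probe sets. For 2 of the 5, Tnc and Ccn4, the signal was at least 2-fold higher in both pairs, which 21 probe sets (0.327%) reached. Opposite directions in the pairs, as for Sparc and Fn1, were found for 48.7% of all.

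**Figure D3:**
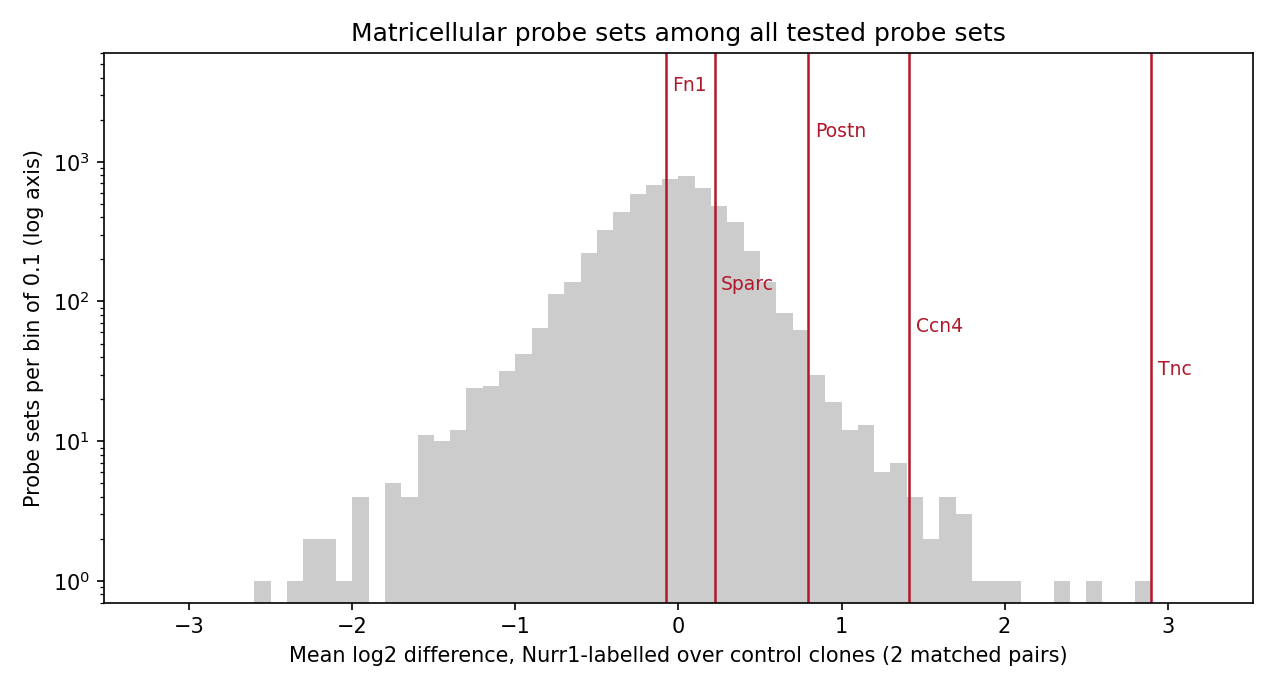
Histogram of the mean log2 difference of Nurr1-labelled over control clones for the 6419 tested probe sets (bins of 0.1, log axis), with a line at each tested member. Tnc at 2.90 lies at the upper end, Ccn4 at 1.41 in the upper tail, and Sparc and Fn1 within the bulk.

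The genes around the members were taken from 6 lists: other matricellular proteins, their receptors, TGF-beta, YAP/TEAD and SRF genes, candidate transcriptional regulators of Tnc, proteases with their inhibitors, and the Wnt pathway. Of the 67 listed genes that were tested, each by its brightest tested probe set, 0 passed in limma in either direction (14 at an unadjusted p under 0.05, 7 higher and 7 lower), where 0.109% of all tested probe sets passed and 474 of the 6419 had an unadjusted p under 0.05, 149 higher and 325 lower. In both pairs 18 were higher and 24 lower, beside 21.7% and 29.7% of all tested probe sets. The same shares stand beside the counts of each list below, which are small. The median log2 difference of the 67 was -0.13, beside -0.04 over all tested probe sets.

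Among 5 further matricellular genes tested, 1 was higher and 1 lower in both pairs, and the median was -0.05. Tgfbi, a periostin relative induced by TGF-beta, gave 2621 for clone 42 and 1976 for clone 48, against 1264 for puroB and 1004 for puroD, with a mean log2 difference of 1.01 (limma adjusted p = 0.265). Both its Nurr1-labelled signals exceeded both controls, as for Postn and for 12.8% of all tested probe sets. Bgn, the small proteoglycan biglycan, separated the other way, as 17.9% of all did, with 110 and 187 against 261 and 207. Its mean log2 difference was -0.70 (adjusted p = 0.808 in limma), and that of Smoc1, a relative of Sparc, -0.33 (adjusted p = 0.974 in limma). Ccn3, Thbs3 and Tnxb were not above the highest unspiked control on any array.

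The receptors of these proteins gave 14 tested genes, of which 3 were higher and 6 lower in both pairs, with a median of -0.19. Itga6, a laminin and CCN-binding integrin chain, gave 618 for clone 42 and 486 for clone 48, against 981 for puroB and 1008 for puroD (mean log2 difference -0.86; limma adjusted p = 0.383). Cd44, a receptor of hyaluronan and osteopontin, had -0.71 (adjusted p = 0.568 in limma) and Stab1, a scavenger receptor for osteonectin, 0.76 (adjusted p = 0.792 in limma). Itgav, a chain of integrins that bind tenascin C, periostin and fibronectin, had 0.08, and Itgb1, the common beta chain, 0.23. These chains lay between 5257 and 8548 in the Nurr1-labelled clones and between 5562 and 5906 in the controls, so their range in the Nurr1-labelled clones took in that of the controls.

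Of 18 tested TGF-beta, YAP/TEAD and SRF genes, 4 lay higher and 6 lower in each pair (median -0.03). F3, tissue factor, which starts coagulation, gave 111 for clone 42 and 179 for clone 48, against 696 for puroB and 402 for puroD. Its mean log2 difference of -1.91 did not pass (limma adjusted p = 0.0638). Tgfb3 had -0.84 (adjusted p = 0.465 in limma) and Tgfb2 0.43 (adjusted p = 0.896 in limma), both ligands of the TGF-beta receptors. Ankrd1 and Axl, which like Ccn1 and Ccn2 are known YAP targets, were among 9 of 33 listed genes not above the highest unspiked control on any array. Yap1 itself (mean log2 difference -0.36), Amotl2 (-0.18) and Lats2 (-0.15) lay above it on every array.

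The candidate regulators of Tnc held the lowest value of the 6 lists, that of Sox11. Sox11, a factor of immature neurons, gave 74.6 for clone 42 and 904 for clone 48, against 1330 for puroB and 1302 for puroD. Its clone 42 signal stood apart from the other 3, and the mean log2 difference of -2.34 did not pass (limma adjusted p = 0.128). Jun, an AP-1 subunit, gave 3078 and 2299 in the Nurr1-labelled clones, against 2041 and 703 in the controls (1.15; limma adjusted p = 0.259), and Fos, its partner, had 0.99 (adjusted p = 0.386 in limma) with 2666 for clone 42 and 281 for clone 48, against 837 for puroB and 228 for puroD. Jun and Fos, like Ccn4, were thus brighter in puroB than in puroD, by 1.54 and 1.87 on the log2 scale. Of the 10 tested, 3 were higher and 5 lower in both pairs (median -0.24). Prrx1, a homeobox activator of Tnc in mesenchyme, was not above the highest unspiked control on any array.

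Among the lists around the members, proteases and inhibitors gave the highest list median, 0.39 over 10 tested genes, with 5 higher and 2 lower in both pairs. Bmp1, the procollagen C-proteinase, gave 910 for clone 42 and 1029 for clone 48, against 317 for puroB and 606 for puroD (1.14; limma adjusted p = 0.183). Htra1, a secreted serine protease, had 0.99 (adjusted p = 0.237 in limma) and Timp3, a matrix-bound metalloprotease inhibitor, 0.72 (adjusted p = 0.581 in limma). In the Wnt pathway, for which Ccn4 is a target, of 10 tested genes 2 lay higher and 4 lower in each pair (median -0.21). Ccnd1, cyclin D1, had -0.79 (adjusted p = 0.563 in limma), the receptor Fzd7 -0.63 (adjusted p = 0.868 in limma) and the transcription factor Tcf7l2 -0.54 (adjusted p = 0.808 in limma).

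Fibroblast and mesenchymal markers were brighter in sum in the arrays in which Tnc and Postn were. Summed over the brightest probe set of all 14 marker genes, their signal was 19880 for clone 42 and 13616 for clone 48, against 9626 for puroB and 9038 for puroD. Of the 8 tested, 5 were higher and 1 lower in both pairs, beside 21.7% and 29.7% of all tested probe sets, and 0 passed in limma. Dcn and Prrx1, 2 of the 14, also stand in a list above. Fap and Prrx1, which mark activated fibroblasts and mesenchyme, were not above background on any array. The collagen Col3a1 gave 5015 and 4006 in the Nurr1-labelled clones, against 1287 and 1749 in the controls. Col1a1 and Col1a2 had opposite directions in the pairs. Their log2 differences in the pairs of clone 42 and clone 48 were 0.16 and -1.43 for Col1a1, and 2.36 and -0.07 for Col1a2. Twist1, a mesenchymal factor, was lower in both pairs (-1.82 and -0.60), with a clone 42 signal of 53.9 that was not above background there. The neuron markers were brighter in sum as well: over the 11 of 12 on the array, the sum was 6963.5 for clone 42 and 5529.7 for clone 48, against 3469.5 for puroB and 3427.2 for puroD. Most of that sum was Tubb3, with 5683 for clone 42, 4628 for clone 48, 2701 for puroB and 2701 for puroD. Of the 4 tested, Nefl, Nefm and Tubb3 (3) were higher in both pairs and 0 lower, and 0 passed in limma. Stmn2 had opposite directions in the pairs (0.25 and -0.59). The median log2 difference of the 4 was 1.27, beside 0.75 for the fibroblast markers. Elavl3, Gap43, Snap25, Syp and Syt1 were not above background on any array. Of the 7 marker lists, the sums of both Nurr1-labelled clones lay above those of both controls for 3 (fibroblast, neuron and oligodendrocyte). They lay below them for 4 (progenitor, astrocyte, microglia and endothelial). Several sums were mostly 1 gene and need not reflect a list as a whole. Eng gave 3169.5 of the endothelial sum of 3530.5 for clone 42 and 4416 of 4691.2 for puroD. Gja1 gave 2701 of the astrocyte sum of 4465.2 for clone 42, while S100b had opposite directions in the pairs (1.12 and -0.30). Nes, the largest part of the progenitor sums, had opposite directions too (-0.07 and 0.30). Most of the oligodendrocyte sum was Sox10, with 5114 of 5562 for clone 42, 7660 of 7976 for clone 48, 4745 of 5353 for puroB and 3434 of 3931 for puroD. The 4 tested oligodendrocyte markers had a median log2 difference of -0.42, with 1 higher and 2 lower in both pairs. The part of these markers in the Tnc and Postn values was not tested, and more cells of a type and more RNA per cell cannot be told apart in such bulk RNA.

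The probe sets whose pattern over the 4 arrays lay nearest to Tnc were found by Euclidean distance between log2 signals centred on their mean. They were Ccl7 (1.33), Glipr2 (1.44), the histone H3c14 (1.54), Ccl2 (1.60) and Nefl (1.61), where the value is that distance. Ccl7, a monocyte chemokine, gave 2364 for clone 42 and 187 for clone 48, against 99.7 for puroB and 134 for puroD, a wider range over the clones than that of Tnc. Glipr2, a Golgi-associated protein, gave 1527 and 960 against 346 and 376, and Nefl, the light neurofilament chain, 504 and 365 against 98.0 and 186, so these were more alike between clone 42 and clone 48 than Tnc was. Around Ccn4 the distances were shorter, with Sema3e at 0.28, Atf3 at 0.28, Ift46 at 0.31, Smim14 at 0.57 and Akap2 at 0.61. Sema3e, a semaphorin, gave 1685 for clone 42 and 815 for clone 48, against 865 for puroB and 252 for puroD. Atf3, a stress-induced transcription factor, gave 6479 and 1966 against 2799 and 767. All of these 5 shared with Ccn4 a highest signal in clone 42, a lowest in puroD, and clone 48 near puroB. With 4 arrays such likeness is a description only.

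**Figure D4:**
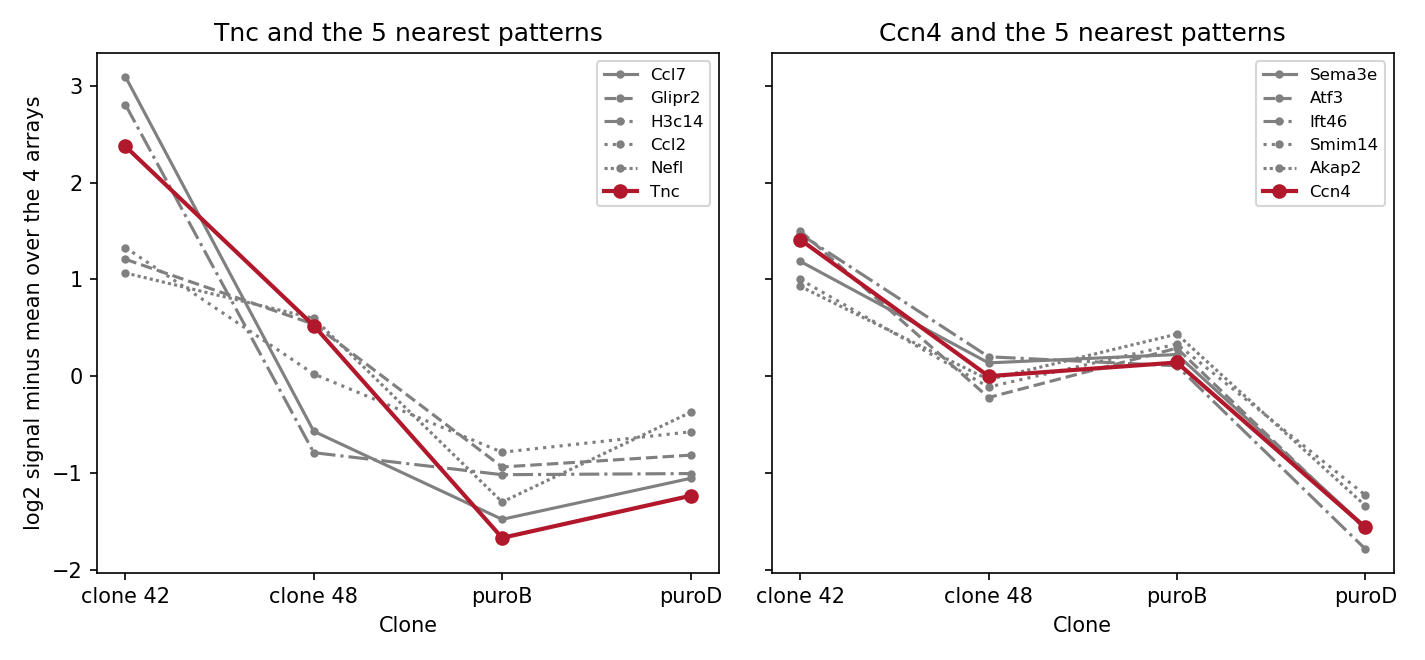
Log2 signal minus its mean over the 4 arrays, by clone, for Tnc (left) and Ccn4 (right) in red and the 5 nearest other probe sets in grey. Patterns near Tnc separate clone 42 and clone 48 from the controls to differing degrees, whereas those near Ccn4 place clone 48 and puroB close together and puroD lowest.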

How the data were processed

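Total RNA of 4 clones was labelled with biotin and hybridised to Affymetrix arrays, per the labels. The authors deposited linear intensity values, in 12469 rows of 1 probe set each. The submitters' processing notes name MAS5; of its version, settings and detection calls nothing is known here. The deposited values had trimmed means (2% off each end) of 500.4 to 500.5. Each array was rescaled here to 500, floored at the 30th percentile (40.3) and put on the log2 scale, and 6419 probe sets above 145.05 on at least 2 arrays, without the 66 array controls, were tested. A floor compresses differences of dim probe sets. Symbols came from the platform annotation (10814 probe sets with 1 symbol, 396 with several, 1193 with none).

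The fit used limma 3.58.1 in R 4.3.3 with a block for the matched pair, moderated variances that follow an intensity trend (eBayes), and Benjamini-Hochberg adjustment over all tested probe sets. It has 1 residual degree of freedom, to which the prior adds 13.1. The pairing follows the sample descriptions; the design text names clone 42 in both pairs. The gap of clone 42 over clone 48 correlated at 0.19 with that of puroB over puroD across probe sets. Clones are the replicates, and nothing says that the cultures were repeated. Members and gene lists were chosen with earlier results of these data known. Named were all member probe sets, listed genes that passed and the 3 of largest difference per list, and the 5 patterns nearest to Tnc and Ccn4; other genes were named after their values were seen. Alternatives were another scaling, floor or filter, no block, no trend, and leaving out each clone in fits without the block.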

Additional observations from a re-analysis of the deposited data

Results flagged for a closer look

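For 2 tested members the matched pairs differed in direction, and the difference between the pairs was not tested, because each clone has 1 array. Fn1 had log2 differences of -0.33 in clone 42 over puroB and 0.17 in clone 48 over puroD. Sparc had 0.46 and -0.02, and the value of clone 48 over puroD became 0.20 with arrays scaled to their medians. Opposite directions were found for 3124 of 6419 tested probe sets.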

How the results depend on the processing

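The number of probe sets passing in limma depended on the settings. It was 0 higher and 0 lower without the pair as a block, with quantile normalization, without a floor and without a filter (287, 375, 473 and 560 at an unadjusted p under 0.05), and 0 members passed there. Nothing is read from the counts of members, which were chosen on this contrast. The counts were 36 higher and 15 lower with arrays scaled to their medians, which moved the median of all probe sets from -0.038 to 0.132, 8 and 9 with the floor at the median, 27 and 22 with the filter on all 4 arrays, and 1 and 6 without a trend, against 4 and 3 in the fit of the report. With median scaling 2 members passed (Tnc and Ccn4). With the filter on all 4 arrays Tnc was not tested, and 1 member passed (Ccn4). Leaving out 1 clone gave 0 to 22 higher and 0 to 29 lower (3 and 14 without clone 42, 22 and 29 without clone 48, 0 and 0 without puroB, 2 and 0 without puroD), and 0 to 1 members (0 without clone 42 or puroB). Of the listed genes, 1 higher (Bmp1) and 2 lower (F3, Sox11) passed with median scaling. With the floor at the median 1 lower (F3) passed, and with the filter on all 4 arrays 1 higher (Jun). The causes were not tested. Over the 8 settings other than leaving out a clone, the log2 difference of Tnc at 101993_at ran from 2.42 to 3.07, of Ccn4 from 1.41 to 1.58, of Postn from 0.73 to 0.97 and of Sparc from 0.15 to 0.39. Fn1 ran from -0.08 to 0.09. Leaving out a clone moved Tnc between 1.97 and 3.82, Postn between 0.59 and 1.00, Ccn1 between -1.21 and 0.16 and Fn1 between -0.22 and 0.07. Signals near the unspiked controls (Ccn1, Ccn2, Thbs2, the dim Tnc probe set and the one shared by Pald1 and Thbs1) limit what can be said of those genes.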
